A study of Rattus norvegicus with 26 samples.

Results

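The difference between fetal-derived and adult rat liver cells was followed across transplantation, in 18 of the 26 libraries of the series. The measure for each gene was a difference of differences. It is the colony minus host difference after transplantation less the LAP+ minus adult difference before it, both on the log2 scale. A value of 0 means that fetal-derived and adult material differed by as much after transplantation as before it. A positive value means that the later difference lies above the earlier one, and a negative value that it lies below.

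After transplantation, laser capture gave 5 libraries of colonies grown from transplanted fetal cells and 5 of adult host liver, one of each from the animals numbered 242, 243, 246, 248 and 249. Before transplantation there were 4 libraries of immunopurified fetal hepatocytes labelled LAP+ and 4 of adult hepatocytes. The labels spell out neither LAP nor the strain, sex, age, interval after transplantation or capture rule. They call the libraries biological replicates without saying that those before transplantation came from separate animals, so p-values measure the spread between these libraries. The 8 other libraries, of LAP+ cells split by OC2, entered only one alternative fit.

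Library kit, starting material and capture all change between the stages and cannot be told apart from transplantation in a difference between the stages. Levels were therefore compared only within a stage, and each stage had its own scaling. In bulk samples such as these, fewer cells of a type and less RNA per cell cannot be told apart.

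Hepatocytes are the main cell type of the liver. In the fetus they are immature and share the organ with developing blood cells, and around and after birth they take up adult work such as drug metabolism and the secretion of blood proteins. Fetal liver cells placed in an adult liver can engraft and grow into colonies of hepatocytes, which makes it possible to ask how much of a fetal expression profile remains in adult surroundings. The files identify genes by number only, so neither the labelled cell types nor pathways could be checked against markers, and genes are described below by position, length and level.

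Libraries held 8500596 to 16248869 counts over 32552 features, and 12523 genes passed the low-count filter in both stages. Several libraries stood apart. Features of chromosome Y summed to 3.53 CPM (counts per 1000000) in adult library 2, against 85.4 to 174 CPM in the 17 others. That library was more than 5-fold below the other adult libraries in 39 genes and more than 5-fold above them in 34, and LAP+ library 4 was more than 5-fold above the other LAP+ libraries in 34. The host library of animal 248 had counts in 19581 features, while colony libraries had counts in 25127 to 28361. Animal 246 went against the other 4 animals in most of the medians below. The counts below changed little without adult library 2 (3018 genes higher and 2867 lower in the difference of differences) or without animal 246 (2915 and 2599), except where given.

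The difference between fetal-derived and adult material was much smaller after transplantation than before it. Of the 12523 genes, 3061 were higher in the difference of differences and 2862 lower, by the quasi-likelihood test of edgeR at a Benjamini-Hochberg adjusted p below 0.05. These are 24.4% and 22.9% of the genes tested, 47.3% together, and 2096 and 1961 of them differed by at least 2-fold. Between colony and host, 1 gene was higher and 1 lower, which is 0.016% of the genes tested. At an unadjusted p under 0.05 those counts were 937 (7.48%) and 1058 (8.45%). Between LAP+ and adult cells, 3995 genes were higher and 3762 lower, 61.9% together. The count between colony and host depended on the tool and the animals. DESeq2 called 7 genes higher and 280 lower, and limma-voom with sample weights called 271 and 354. With edgeR, 279 were higher and 486 lower without animal 246, and 0 and 0 without animal 249.

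Nearly all genes called in the difference of differences had already differed before transplantation, and that measure had the opposite sign to the earlier difference. Of the 5923, 5727 (96.7%) ran against the direction of a called LAP+ minus adult difference, 0 ran in its direction, and 196 (3.31%) had no earlier call. The earlier difference is part of the measure, so an opposite sign follows wherever the later difference is near 0. The later difference itself more often kept the earlier sign. It was above 0 in 75.8% of the genes at least 2-fold higher in LAP+, and in 30.9% of those at least 2-fold lower. Among genes higher in LAP+ than in adult cells, 2774 of 3995 (69.4%) were called lower in the difference of differences, and 1221 had no call. Among genes lower in LAP+, 2953 of 3762 (78.5%) were called higher and 809 had no call. Across all 12523 genes the later and the earlier difference correlated with Pearson's r = 0.37 and Spearman's rho = 0.36. This is a description over genes, which are not independent replicates.

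**Figure D1:**
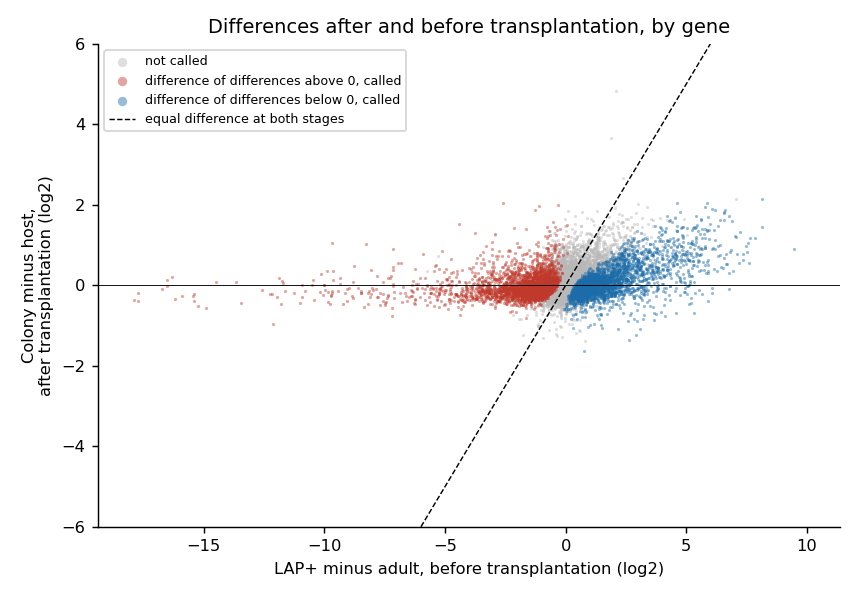
Each point is 1 of the 12523 genes, with the LAP+ minus adult log2 difference on the horizontal axis and the colony minus host log2 difference on the vertical axis. Genes called in the difference of differences (3061 above 0 and 2862 below) lie in a flat band around a later difference of 0, away from the dashed line of equal differences.

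The genes that LAP+ cells expressed at least 2-fold higher kept a small lean toward the colonies. The 2465 such genes had a median LAP+ minus adult difference of 1.92 (log2), and their median colony minus host difference was 0.26. The later difference was positive in 75.8% of them. At an unadjusted p under 0.05, 473 (19.2%) were higher in colonies and 43 (1.74%) lower, beside 7.48% and 8.45% of all genes. The median over these genes, on the log2(CPM + 1) scale that understates differences of low genes, was 0.36 in animal 242, 0.15 in 243, -0.06 in 246, 0.33 in 248 and 0.32 in 249. Thus 4 of 5 animals leaned toward the colony, and animal 246 did not. In all 5 animals 323 of the genes were higher in the colony, and 48 were lower. That count was not made over all genes tested, so it has no background share beside it.

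The genes that LAP+ cells expressed at least 2-fold lower were close to equal in colony and host. The 2199 such genes had a median LAP+ minus adult difference of -1.80 (log2) and a median colony minus host difference of -0.10. At an unadjusted p under 0.05, 450 (20.5%) were lower in colonies and 73 (3.32%) higher. The animals' medians were -0.16, -0.06, 0.04, -0.19 and -0.14 for animals 242, 243, 246, 248 and 249. The sign again followed the earlier difference in 4 of 5 animals. In all 5 animals 216 genes were lower in the colony, and 80 were higher, again without a count over all genes tested. The 4766 genes with no call before transplantation had a median colony minus host difference of 0.01.

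The later and the earlier difference could be told apart more often for genes lower in LAP+. Of the 2199, 2102 (95.6%) were called in the difference of differences and 97 (4.41%) were not, and in 1974 (89.8%) the 95% interval of the colony minus host difference lay within 2-fold either way. Of the 2465 genes higher in LAP+, 1891 (76.7%) were called, 574 (23.3%) were not, and 1235 (50.1%) had such an interval. Over all 12523 genes tested, 9874 (78.8%) had such an interval. The levels differed too: the median level after transplantation was 35.1 CPM in the lower set and 5.53 CPM in the higher set. The 574 uncalled genes of the higher set had a median later difference of 0.62 against an earlier one of 1.51, at 3.37 CPM and a median standard error (SE) of 0.59. The 1891 called ones had 0.17 against 2.11, at 6.82 CPM and a median SE of 0.42.

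A stricter reading asked whether the later difference was under 0.5 times the earlier one, a contrast added after the data were seen. Among genes higher in LAP+, 1015 (41.2%) were called under that share, 0 over it, and 1450 were undecided. Among genes lower in LAP+, 1622 (73.8%) were under it, 0 over it and 577 undecided. The undecided genes are not shown to have kept their difference.

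The share of the earlier difference that remained can be given as a slope through 0 of the later on the earlier log2 difference. In genes higher in LAP+ the slope was 14.8%, and in genes lower in LAP+ it was 1.71%. The slope gives most weight to the largest earlier differences. The median over genes of the later to the earlier difference was 12.7% and 4.19%. On the log2(CPM + 1) scale the slopes for the higher set were 16.4, 8.21, -2.68, 15.7 and 14.8% in animals 242, 243, 246, 248 and 249, a mean of 10.5% ± 8.04 (SD, n = 5). For the lower set they were 3.42, 1.60, -1.01, 3.93 and 2.28%, a mean of 2.04% ± 1.94 (SD, n = 5). Animal 246 was the only one below 0 in both sets. Without it the fitted slopes were 19.9% and 2.24%. The sets were chosen on the same earlier values that divide the slope, and an error in those values makes the share smaller.

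Much of the gap between the sets went with level. Among genes of at least 10 CPM after transplantation, a limit added after the data were seen, the slope was 4.89% in the 774 genes higher in LAP+ and 2.96% in the 1726 genes lower in LAP+. The median ratios of these genes had the other order, 3.76% in the higher set and 5.54% in the lower set. Low genes leaned toward the colony whatever their earlier difference: genes with no earlier call had a median colony minus host difference of 0.24 below 3 CPM, 0.14 from 3 to 10 CPM and -0.08 from 100 CPM. Relative to these genes of like level, the genes higher in LAP+ stood 0.34 above them below 3 CPM, 0.23 from 3 to 10 CPM, 0.12 from 10 to 30 CPM and 0.05 in both upper classes. The genes lower in LAP+ stood 0.01 above them below 3 CPM, and at -0.07, -0.08 and -0.09 relative to them in the 3 classes from 10 CPM. The lean toward the colony in the higher set was thus largest in the lowest class and smallest at 30 CPM and more. At least 3 of 5 animals showed it in every class. The median earlier difference of the higher set also fell with level, from 2.68 (log2) below 3 CPM through 1.95, 1.58 and 1.46 to 1.23 from 100 CPM. Level and size of the earlier difference were not separated.

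**Figure D2:**
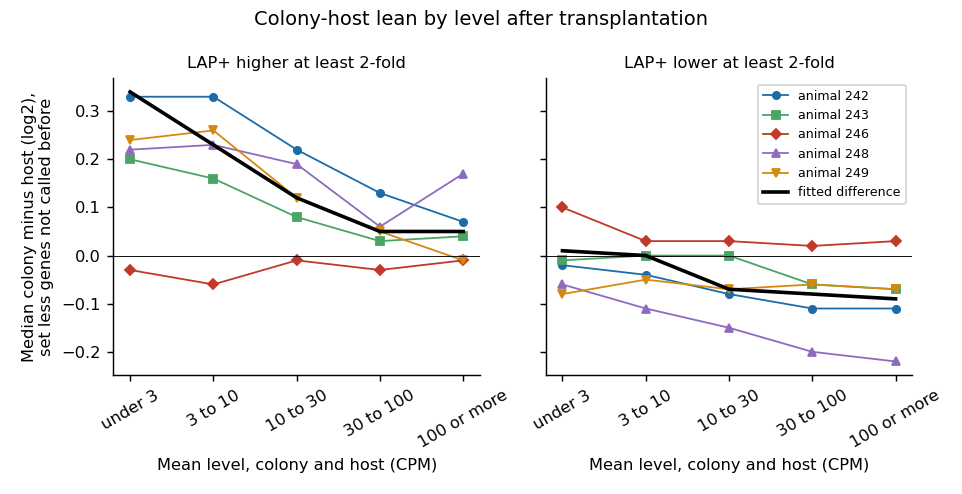
The vertical axis is the median colony minus host log2 difference of a set less that of genes with no earlier call in the same class of level, and the horizontal axis is the mean CPM of colony and host libraries. The black line is the fitted difference and coloured lines are the 5 animals on the log2(CPM + 1) scale. For genes higher in LAP+ the fitted lean is 0.34 in the lowest class and 0.05 in the highest, and animal 246 lies below 0 throughout.

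The share of calls followed level as well. In the set higher in LAP+, 63.7% of genes under 3 CPM were called in the difference of differences, 73.0% from 3 to 10 CPM, 90.3% from 10 to 30 CPM, 98.1% from 30 to 100 CPM and 98.3% above. In the set lower in LAP+ the shares were 73.1, 91.0, 96.5, 98.2 and 99.1% in the same classes. From 30 to 100 CPM, 4 genes of the higher set and 11 of the lower set lacked a call. A missing call was thus mostly found where counts were low.

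The later difference grew with the size of the earlier one on the LAP+ side, and hardly on the adult side. Genes with an earlier log2 difference of 1 to 2 had a median later difference of 0.15. The median was 0.40 for an earlier difference of 2 to 4, 0.73 for 4 to 6 and 0.91 for the 51 genes above 6. On the other side the medians were -0.08 for -2 to -1, -0.10 for -4 to -2, -0.17 for -6 to -4 and -0.18 for the 132 genes at or below -6. The 51 genes above 6 had a median of 2.40 CPM after transplantation and the 132 genes at or below -6 had 56.8 CPM. In animal 246 the medians were -0.11 for 2 to 4, 0.01 above 6 and 0.07 at or below -6.

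**Figure D3:**
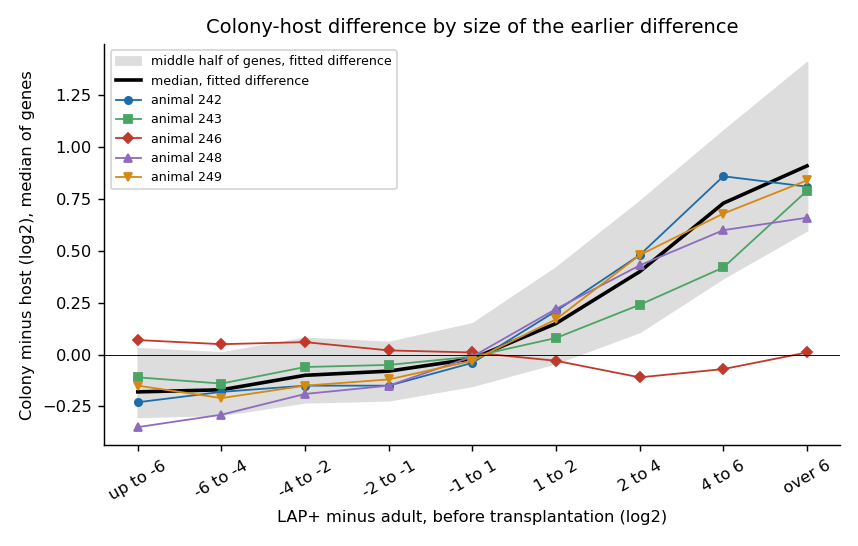
Genes are binned by the LAP+ minus adult log2 difference (horizontal axis), and the vertical axis is the median colony minus host log2 difference of a bin, with the black line for the fitted values, the band from the lower to the upper quartile and coloured lines for the 5 animals. The black line ends at 0.91 on the LAP+ side and at -0.18 on the adult side, and animal 246 stays near 0.

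Single genes were named by size of change. The rule held for 4302 genes that were called, reached 10 CPM in their highest group and 1 CPM in each stage mean, and had differences apart. Apart means that all 5 colony minus host differences lay on 1 side of all 4 LAP+ libraries less the adult mean. Of all 12523 genes tested, 5404 had differences apart, called or not. The 2 highest and 2 lowest of the 4302 are given (positions are those of the deposited files, whose build the sources used here do not give). Both of the highest were all but silent in LAP+ cells and not in adult cells, and their colony and host levels overlapped. ENSRNOG00000045799 lies on chromosome 8 from 41657566 to 41661238, with 629 exonic nt. Its colony levels in animals 242, 243, 246, 248 and 249 were 284, 407, 391, 433 and 263 CPM, and host levels were 433, 508, 327, 764 and 334 CPM. In LAP+ libraries 1 to 4 it had 0.0576, 0, 0, and 0 CPM, and in adult libraries 6480, 2000, 7120 and 5910 CPM. Colony and host levels overlapped and the groups before transplantation did not. Within animals the colony lay below its own host, except in animal 246. The 1 LAP+ count against 285967 adult counts gives an adult to LAP+ ratio of 288000 (95% interval 51700 to 11400000, for counting error only, on library totals without TMM scaling). Its difference of differences was 17.47 ± 0.69 (log2, SE; edgeR adjusted p = 9.3e-11), a fitted size that leans on that 1 count, and its colony minus host difference was -0.37 ± 0.12.

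ENSRNOG00000052810, on chromosome 1 from 257970345 to 258004434, showed the same arrangement. Colonies had 1530, 1370, 1250, 1020 and 1120 CPM, and hosts 1780, 1700, 1210, 1260 and 1260 CPM in the same order of animals. Within animals the colony again lay below its own host, except in animal 246. No LAP+ library had a count, and adult libraries 1 to 4 had 1970, 11.4, 2580 and 2320 CPM. The adult level was at least 7690-fold higher than LAP+, at a floor of 3 counts per library on unscaled totals. Adult library 2 lay far below the other 3. The difference of differences was 17.35 ± 2.60 (log2, SE; edgeR adjusted p = 8.5e-04), and 17.78 without adult library 2, while colony minus host was -0.19 ± 0.09. These fitted sizes have no LAP+ count behind them. The earlier difference was fitted at -17.72 (log2), while its bound at the floor is -12.91.

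The 2 lowest genes were higher in LAP+ than in adult cells, and their colony and host levels overlapped. ENSRNOG00000049096 lies on chromosome 15 from 34622123 to 34625121. It had 2.78, 2.62, 1.57, 2.13 and 2.65 CPM in colonies and 1.20, 0.65, 1.97, 0.596 and 2.51 CPM in hosts. In LAP+ libraries 1 to 4 it had 123, 33.0, 64.5 and 66.9 CPM, and in adult libraries 0, 0.0722, 0.217 and 0.0733 CPM. The colony was above the host in 4 of 5 animals, animal 246 being the other, and all LAP+ libraries lay above all adult ones. Its difference of differences was -8.63 ± 0.81 (log2, SE; edgeR adjusted p = 8.6e-07) and its colony minus host difference 0.90 ± 0.52, which did not pass the test.

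ENSRNOG00000016581, on chromosome 17 from 32904119 to 32911495, rested on 1 library for its size. Colonies had 1.14, 1.65, 2.17, 1.42 and 2.71 CPM and hosts 1.30, 2.21, 2.06, 3.47 and 1.04 CPM. LAP+ libraries 1 to 4 had 15.5, 8.81, 11.6 and 280 CPM, and adult libraries 0.734, 0.794, 0.797 and 0.513 CPM. LAP+ library 4 was far above the other 3, though those too lay above every adult library. The difference of differences was -6.86 ± 1.78 (log2, SE; edgeR adjusted p = 0.0083) and -4.15 without LAP+ library 4. With limma-voom it lost its call (adjusted p = 0.31 with sample weights, 0.13 with each stage fitted alone).

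**Figure D4:**
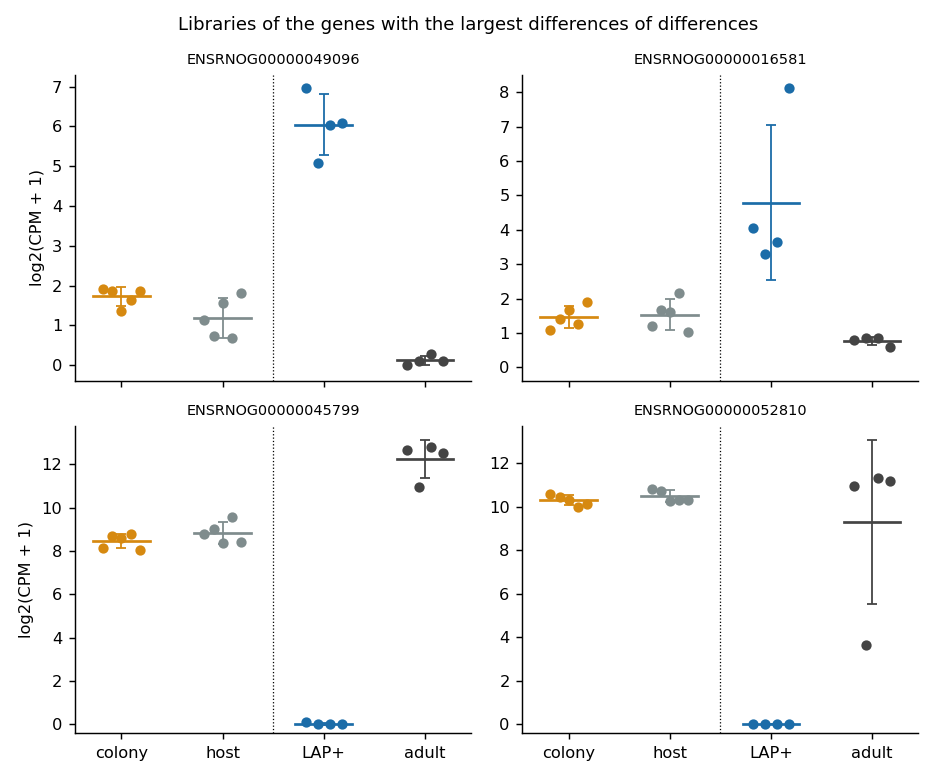
The 4 panels give the level of 1 gene each as log2(CPM + 1), with a point per library and the mean and SD of colony, host (n = 5), LAP+ and adult (n = 4) libraries, and the dotted line parts the stages, whose levels are not compared. Colony and host points overlap in all 4 genes (in ENSRNOG00000049096 from 1.57 to 2.51 CPM), while LAP+ and adult points lie apart, with single adult (11.4 CPM) and LAP+ (280 CPM) libraries away from their groups.

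One gene was called in the same direction at both stages. ENSRNOG00000039473, on chromosome 2 from 53116101 to 53140637, had 64.6, 128, 113, 103 and 70.4 CPM in colonies and 122, 173, 145, 241 and 121 CPM in hosts. It was lower in the colony in all 5 animals. LAP+ libraries had 388, 136, 359 and 273 CPM, and adult libraries 597, 525, 492 and 373 CPM, so LAP+ library 1 lay above adult library 4. The colony minus host difference was -0.74 ± 0.11 (log2, SE; edgeR adjusted p = 0.016), the LAP+ minus adult difference -0.78 ± 0.30 (adjusted p = 0.044) and the difference of differences 0.04 ± 0.35 (adjusted p = 0.94). The earlier call was lost without LAP+ library 4 or adult library 1, 2 or 3 (adjusted p = 0.071 to 0.11), in the fit of all 26 libraries and without a low-count filter. The later call was lost without animal 242 or 249 (adjusted p = 0.27 and 0.3) and with no animal block (0.43). The number of genes called in the same direction at both stages was 515 without animal 246 (338 of them called smaller after transplantation), 218 with DESeq2, 415 with limma-voom and 145 without a low-count filter. In opposite directions the same settings called 64, 26, 82 and 16 genes.

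The other gene called between colony and host is named after its values were seen. ENSRNOG00000055225 is a feature of 68 nt on chromosome X from 74325012 to 74325079. Colonies had 4.21, 1.05, 8.02, 4.15 and 4.44 CPM and hosts 0.401, 0, 0.449, 0 and 0 CPM, so the groups did not overlap. Its fitted colony minus host difference was 4.83 ± 0.68 (log2, SE; edgeR adjusted p = 0.012), from 287 colony and 9 host counts. Before transplantation LAP+ libraries had 13.0, 8.25, 2.21 and 6.24 CPM and adult libraries 0, 6.71, 0 and 0.0733 CPM. Adult library 2 alone overlapped LAP+. The difference of differences was 2.68 ± 1.89 (adjusted p = 0.27), and -2.99 (adjusted p = 0.14) without adult library 2, so its direction was not settled.

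Genes silent in LAP+ cells showed the arrangement of the 2 highest genes as a group. There were 36 genes with a mean under 0.1 CPM in LAP+ and at least 10 CPM in adult cells, 11 of them without a LAP+ count, chosen on the earlier values. All 36 were called higher in the difference of differences, as their choice all but fixes. Their median level was 57.6 CPM in colonies and 65.8 CPM in hosts. The colony minus host difference had a median of -0.13 (log2) and ran from -0.95 to 1.03, with 0 genes called. Its 95% interval lay within 2-fold in 32 of the 36, beside 78.8% of all genes tested. By animal the medians were -0.22, -0.11, 0.12, -0.34 and -0.03 (242, 243, 246, 248 and 249). Within their own stage, colonies were thus close to hosts by median, while LAP+ cells were far below adult cells. Adult library 2 was more than 10-fold below the other adult libraries in 12 of the 36. The mirror group, under 0.1 CPM in adult and at least 10 CPM in LAP+ cells, held 3 genes. Their median later difference was 0.90, at 2.35 CPM in colonies and 1.39 CPM in hosts. Both groups hold only genes that also passed the low-count filter after transplantation. Genes silent in both colony and host could therefore not enter, and the sizes of the groups are not compared.

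The most abundant transcripts also differed less after transplantation than before it. The lists of 50 below were picked on levels that enter the earlier difference, which tilts their counts of calls. In the adult list 39 genes were called lower in LAP+ and 4 higher, and in the LAP+ list 30 were called higher and 13 lower. Of the 50 nuclear genes highest per exon length in adult cells, 34 were called higher in the difference of differences and 5 lower, beside 24.4% and 22.9% of all genes. Their median was -0.25 (log2) between colony and host and -1.81 between LAP+ and adult cells, and 45 of 50 were lower in colonies by sign. Of the 50 highest in LAP+ cells, 10 were called higher and 31 lower, with medians of -0.19 and 0.85, and 39 of 50 were lower in colonies by sign. Both lists of abundant genes, whatever their earlier direction, thus stood slightly lower in colonies than in hosts, except in animal 246 (medians 0.12 and 0.10).

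Some called genes lay next to each other. Runs, meaning stretches of at least 4 adjacent tested genes with the same call, no more than 500000 nt apart, numbered 62 for genes higher in the difference of differences (285 genes, 9.31% of those called) and 45 for lower ones (198 genes, 6.92%). Near-identical copies in such runs may share reads, and no chance level was set for them. The run with the most higher genes lay on chromosome 20 from 3973420 to 4508214. Its 10 genes summed to a mean of 698 CPM in colonies (477 to 1140) and 817 CPM in hosts (555 to 1330), against 145 CPM in LAP+ (119 to 173) and 852 CPM in adult cells (639 to 1270). All 10 were lower in colonies by sign, with a median of -0.25 (log2), while the earlier median was -2.46. The groups overlapped after transplantation and not before it.

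A run on chromosome 4 from 153805993 to 155051429 held abundant transcripts. Its 7 genes summed to 10400 CPM in colonies (7100 to 12300) and 13300 CPM in hosts (8960 to 17100), and to 239 CPM in LAP+ (131 to 292) and 8630 CPM in adult cells (6580 to 10300). The median difference was -0.18 (log2) after transplantation and -2.65 before it. The summed level was lower in the colony in all 5 animals, though the ranges of the 2 tissues overlapped.

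Some runs were all but silent in LAP+ cells. On chromosome 5 from 77245143 to 78131114, 6 genes summed to 3500 CPM in colonies (1430 to 6220) and 3310 CPM in hosts (1840 to 6070), while LAP+ cells had 5.05 CPM and adult cells 5140 CPM. Adult library 2 had 42.3 CPM there, and the 3 other adult libraries 6130 to 7600 CPM. The median colony minus host difference was 0.12 (log2), and with 3 genes without a LAP+ count at their bound the earlier median was -10.62. On chromosome 1 from 147422779 to 148287217, 4 genes summed to 807 CPM in colonies and 1120 CPM in hosts, and to 0.153 CPM in LAP+ and 5240 CPM in adult cells. In that run adult library 2 was the highest, at 12100 CPM, and all 4 genes were lower in colonies by sign (median -0.43). A run on chromosome 14 from 22072024 to 22619968 was low in LAP+ cells but not silent as a sum. Its 5 genes summed to 801 CPM in colonies and 1090 CPM in hosts, and to 193 CPM in LAP+ and 3730 CPM in adult cells. Their median was -0.44 (log2) after transplantation and -7.50 before it, and animal 246 (0.04) differed from the other 4 (-0.79 to -0.28).

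The run with the most lower genes, high in LAP+ cells, was still higher in the colonies of 4 of 5 animals. On chromosome 15 from 34601037 to 35113678, which holds ENSRNOG00000049096, 8 genes summed to 30.7 CPM in colonies (18.4 to 42.1) and 14.7 CPM in hosts (8.90 to 21.1). LAP+ cells had 165 CPM (76.8 to 260) and adult cells 1.51 CPM (0.653 to 3.12). The median difference was 1.13 (log2) after transplantation and 5.90 before it. By animal it was 1.11, 0.57, -0.13, 1.13 and 1.13, with animal 246 the exception.

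Mitochondrial transcripts were mostly lower in LAP+ than in adult cells before transplantation, and their colony minus host differences were mostly above 0 without passing the test. Their share of all counts averaged 1.05% ± 0.301 (SD, n = 5) in colonies and 0.723% ± 0.167 (SD, n = 5) in hosts, with ranges of 0.661 to 1.43% and 0.570 to 0.997% that overlap. It averaged 5.04% ± 0.982 in LAP+ and 7.73% ± 2.05 in adult cells (SD, n = 4 each), with ranges of 4.11 to 6.42% and 5.32 to 10.3%. Of 35 mitochondrial features, 22 were tested, and 15 of these were called higher and 1 lower in the difference of differences. All 13 of at least 200 nt were higher (0.86 to 2.51 on the log2 scale, median 1.33), beside 24.4% of all genes. Their colony minus host differences ran from -0.07 to 0.80 (median 0.27) with 0 called, and their LAP+ minus adult differences from -2.28 to -0.58 (median -1.18) with 11 called lower. By animal the later median was 0.89, 0.44, -0.16, -0.26 and 0.63, positive in 3 of 5. These features come from 1 genome and share their libraries, so they are not independent of each other.

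**Figure D5:**
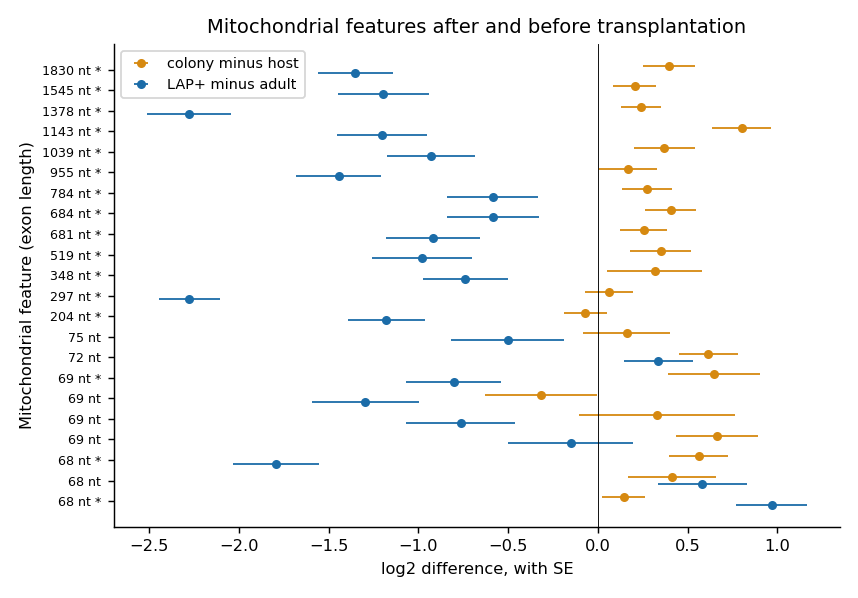
Each of the 22 mitochondrial features tested is a line of the plot, with its colony minus host log2 difference drawn over its LAP+ minus adult one, each with SE, and is labelled by exon length, with an asterisk where the difference of differences was called. The 13 longer features lie from -2.28 to -0.58 before transplantation and from -0.07 to 0.80 after it.

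Short nuclear features leaned the other way. Of 58 nuclear features under 200 nt, 28 (48.3%) were called lower in the difference of differences and 5 (8.62%) higher, beside 22.9% and 24.4% of all genes. Their median was -0.24 (log2) between colony and host and 1.20 between LAP+ and adult cells. Nuclear features with 1 exon of at least 200 nt (350) were called higher in 22% and lower in 21.1%. Genes of more than 5000 exonic nt (1466) were called higher in 28.6% and lower in 22.6%. The kits' recovery of short RNA was not tested. Called genes differed in level more than in length: after transplantation the median was 34.9 CPM for the higher, 11.4 CPM for the lower and 12 CPM for the uncalled ones, at medians of 2539, 2395.5 and 2329 exonic nt.

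The calls were spread over the genome. Over 21 chromosomes the called share ran between 43.6% and 52.9%, and the median difference of differences between -0.06 and 0.09. Chromosome 20 leaned to higher calls (31.2% higher and 18.8% lower; 29.3% and 21.8% without adult library 2). Chromosome X leaned to lower calls (19.2% higher and 30% lower; 18.1% and 29.2% without that library). No test was made of these shares.

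The count of 196 genes called without an earlier call depended on the processing: it was 642 with limma-voom in each stage alone, 364 without a low-count filter, 128 without animal 242 and 130 without animal 249. The 108 higher ones had a median difference of differences of 1.09 (log2), with 64 at 2-fold or more. They had a median difference of 0.54 (log2) between colony and host and -0.49 between LAP+ and adult cells, at 7.54 CPM after transplantation, and 41 had one sign in all 5 animals. The 88 lower ones had a median of -0.59, with 12 at 2-fold or more, and later and earlier medians of -0.32 and 0.27, at 34.8 CPM, and 27 had one sign in all 5 animals. Neither count of one sign has a count over all genes tested beside it. By animal the higher ones had medians of 0.70, 0.34, 0.08, 0.62 and 0.62, and the lower ones -0.38, -0.21, -0.02, -0.49 and -0.37, with animal 246 nearest to 0 in both. By their medians, these genes had later and earlier differences of opposite sign, which their choice favours. They were picked on these same values, for a called difference of differences without a called earlier one. The most abundant of the higher and of the lower ones, picked after their values were seen, show the scale of such changes. A mitochondrial feature of 684 nt from 7006 to 7689 had 853, 607, 476, 672 and 909 CPM in colonies and 428, 440, 446, 806 and 547 CPM in hosts. It had 6630, 3570, 5370 and 4840 CPM in LAP+ cells and 7300, 7760, 10500 and 4980 CPM in adult cells. Its difference of differences was 0.99 ± 0.32 (log2, SE; edgeR adjusted p = 0.02), with groups that overlap at both stages. Within animals the colony lay above its own host, except in animal 248. A gene on chromosome 11 from 81707804 to 81735592 had 5180, 5350, 5210, 4140 and 3410 CPM in colonies and 6280, 6580, 4660, 6170 and 4870 CPM in hosts. It had 18600, 12000, 19000 and 17700 CPM in LAP+ cells and 14600, 13200, 12800 and 12600 CPM in adult cells. Its difference of differences was -0.64 ± 0.21 (log2, SE; edgeR adjusted p = 0.021), and again the groups overlap. Within animals the colony lay below its own host, except in animal 246.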

How the data were processed

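RNA was sequenced from sorted cells before transplantation and laser-captured tissue after it. Per the file headers, the files hold raw counts for each feature, beside exon positions and lengths. Per the labels' protocols, libraries were made with NEBNext Ultra RNA before and SMARTer Stranded Total RNA-seq Pico after transplantation. Per the submitters' processing notes the tools included STAR 2.5.2b, featureCounts (Subread 1.5.2), Trimmomatic 0.36 and bcl2fastq 2.17. Build, annotation and use of strand in counting: not given in the sources used here, so a gene and one overlapping or antisense to it may share reads.

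Genes that pass filterByExpr in the 8 libraries before and in the 10 after transplantation were tested in 1 fit of 18 libraries, with TMM scaling within each stage and animals as a block after transplantation. The test was edgeR 4.0.16 (R 4.3.3), robust quasi-likelihood, Benjamini-Hochberg adjusted over 12523 genes at 0.05. LAP+ minus adult and colony minus host were each fitted on their own stage. CPM use TMM-scaled totals. A count of 0 allows 3 counts, which is 0.185 to 0.353 CPM per library on totals without TMM scaling, as also used for ratios and bounds of genes with 0 or 1 LAP+ counts. The intervals and limits of these ratios and bounds cover counting error only. All 32 pairs of replicates differed beyond sampling noise (chi-square of 11.8 to 124 for each degree of freedom).

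Colony and host libraries carry the number of the same animal, and their deviations from group means correlated at 0.0573, 0.459, -0.0723, 0.23 and 0.394 in animals 242, 243, 246, 248 and 249. Equal numbers before transplantation have no stated link (-0.163 to 0.0628).

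Members, lists and tests were chosen with earlier results of these data known. The reference table pairs 0 of 32552 identifiers with a symbol, so 16 lists of named genes (cell type markers and pathways) could not be tested. The rule for genes to name took called genes of at least 10 CPM in the highest group and 1 CPM in each stage mean. Their colony minus host differences all lay on 1 side of every LAP+ library less the adult mean. They were ranked by change, with 2 printed each way. Alternatives were DESeq2 1.42.0, limma-voom (limma 3.58.1), other scaling and filters, fits with other blocks, all 26 libraries, and fits with 1 library or animal removed. In simulated libraries of 12523 genes with 200 changed, the difference of differences recovered 24% of changes of log2 1 and 79% of log2 2, and 8% of calls were false. That share of false calls lies above the adjusted p threshold. In the data 5923 genes (47.3%) were called, and the adjustment depends on how many genes change. The simulated shares therefore do not give the recovery or the false calls in the data.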

Additional observations from a re-analysis of the deposited data

Results flagged for a closer look

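Of 54 groups of 4 or 5 libraries checked for 1 value far from the others, 5 had one, where chance gives about 1 in 20. Chromosome Y features summed to 164 CPM in the colony of animal 248, against 119 to 126 CPM in the other colonies. The host of that animal was also the highest host, at 174 CPM against 101 to 148 CPM. The sum of 3.53 CPM in adult library 2, given above, is not among the 5. The host library of animal 248 had 19581 features with a count. ENSRNOG00000016581 reached 280 CPM in LAP+ library 4, ENSRNOG00000045799 had its single LAP+ count in library 1 (0.0576 CPM), and ENSRNOG00000055225 had 6.71 CPM in adult library 2, with 0 to 0.0733 CPM in the other adult libraries.

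The difference between the stages was itself tested and past the threshold in 3061 genes above 0 and 2862 below (edgeR quasi-likelihood test). Among the genes described one by one, the log2 difference of differences was -8.63 for ENSRNOG00000049096, -6.86 for ENSRNOG00000016581, 17.47 for ENSRNOG00000045799 and 17.35 for ENSRNOG00000052810. It was 0.99 for the mitochondrial feature from 7006 to 7689 and -0.64 for the gene on chromosome 11 from 81707804 to 81735592. The sizes for ENSRNOG00000045799 and ENSRNOG00000052810 are fitted from 1 and 0 LAP+ counts, so they are not measured sizes. Kit, material and capture change with the stage and cannot be told apart from transplantation in these values.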

How the results depend on the processing

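Over 479 comparisons of a result with an alternative, 429 kept direction and side of the threshold, or stayed within 1.5 times for counts. The difference of differences kept both counts in every alternative (leave-outs 2826 to 3092 higher and 2587 to 2894 lower), as did LAP+ minus adult. Higher and lower calls in the difference of differences numbered 2962 and 2726 with a replicate block also before transplantation, and 2918 and 2798 with no replicate block.

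Calls between colony and host moved most. They were 7 higher and 280 lower with DESeq2, 271 and 354 with limma-voom with sample weights, 132 and 149 with no low-count filter, and 4 and 2 with a filter on the 10 tissue libraries alone, chosen after seeing the data. They were 0 and 0 with no replicate block, and 0 higher without mitochondrial and short features. Leaving out 1 animal gave 0 to 279 higher and 0 to 486 lower, the lowest without animal 249 and the highest without animal 246. Genes called in 1 direction before and after numbered 218 with DESeq2, 0 in the fit of all 26 libraries, 415 with limma-voom, 145 with no low-count filter, 0 with no replicate block, 2 with the replicate block before transplantation and 0 to 515 over leave-outs. Genes called without an earlier call numbered 642 with limma-voom in each stage alone, 364 with no low-count filter and 128 to 246 over leave-outs. The slope of genes higher in LAP+ was 4.89% at 10 CPM or more, a limit chosen after seeing the data. The cause of these shifts was not tested, beyond fewer samples or other genes in the fit.

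For single genes, 183 values kept their direction and side of the threshold, 7 lost their call and 8 changed sign without being called in either fit. The sign changes were those of ENSRNOG00000055225 (-0.77 and -0.89 with limma-voom in each stage alone and with sample weights, -2.99 without adult library 2) and of ENSRNOG00000039473, which lies near 0 (-0.02 with filterByExpr over the 18 libraries, -0.19 without LAP+ library 2, -0.06 without adult library 1, -0.03 without animal 243 and -0.05 without animal 246). Over leave-outs they ran from -2.99 to 3.30 and from -0.19 to 0.22. ENSRNOG00000016581 lost it with limma-voom, the mitochondrial feature without animal 242 (adjusted p = 0.054) and with all 26 libraries (0.098), and the chromosome 11 gene without animal 248 or 249 and with all 26 libraries (0.051, 0.05 and 0.2). Low depth limits genes under 10 CPM, where many differences could not be told apart.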
